A study of Homo sapiens with 6 samples.

Results

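The genes described here are those of the human mitochondrial genome, a small circular DNA held in many copies per cell. All genes whose symbol starts with MT- and that GENCODE 29 places on the mitochondrial chromosome (chrM, hg38) were taken. These are 37 of the 60660 gene IDs in the files, namely 13 that encode proteins, 2 ribosomal RNAs and 22 transfer RNAs. The rule itself uses names and position and no measured value.

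The RNA-seq libraries come from OCI-AML3 cells, a widely used line derived from acute myeloid leukaemia. In 3 libraries the cells overexpressed SLC2A3, the gene for the glucose transporter GLUT3, and in 3 libraries they carried an empty vector, which the titles call pLenti. Every culture received 250 µM vitamin C, so no library without the vitamin is part of the comparison. The sources used here do not give the promoter of the vector, whether the lines are clones or pools, or whether the replicates are separate cultures. The p-values are therefore about differences between these 6 samples, and part of that spread may be technical.

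The mitochondrial genome is transcribed from both strands by a dedicated polymerase, POLRMT, into long precursors that span many genes. Cleavage at the tRNAs that lie between most of the other genes releases the individual mRNAs and rRNAs. The mRNAs encode core subunits of 4 of the complexes of oxidative phosphorylation, all other subunits of which come from nuclear genes. The leukaemic cells of many patients with acute myeloid leukaemia are known to lean on oxidative phosphorylation.

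The libraries held 35770556, 34590069 and 31054462 reads in genes in the SLC2A3 group and 32581096, 33162128 and 33073173 in the empty vector group. SLC2A3 itself stood at 4056, 3716 and 4054 normalised reads in SLC2A3 libraries, against 1194, 1183 and 1257 in empty vector libraries (log2 fold change 1.70, limma adjusted p = 7.95e-18). Of 8 markers of the line, CD33, SPI1, PTPRC, HOXA9, MEIS1 and CEBPA were expressed in every library, and MPO and CD34 were low. Among markers of other cells, HBB and CD3E had 0 reads in all 6 libraries, and EPCAM, KRT8 and COL1A1 had 0 to 30.6 normalised reads. RN7SL1, a noncoding RNA of the signal recognition particle that was chosen after its values were seen, had 2233, 6026 and 1922 normalised reads in SLC2A3 libraries, against 538, 1812 and 705 in empty vector libraries. Replicate 2 was the highest in RN7SL1 in both groups.

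All 13 mitochondrial mRNAs and both rRNAs were among the highly expressed genes of the cells. Together the 37 genes took 4.47%, 4.72% and 4.71% of all gene reads in SLC2A3 libraries, against 4.98%, 4.58% and 4.86% in empty vector libraries. The mean share was 4.64% ± 0.142 with SLC2A3 and 4.81% ± 0.204 with the empty vector (SD, n = 3 each), and the groups overlapped. The mRNAs made up most of it, at 3.51% ± 0.1002 in SLC2A3 libraries and 3.71% ± 0.192 in empty vector libraries. The rRNAs took 1.12% ± 0.0951 in SLC2A3 libraries and 1.09% ± 0.0196 in empty vector libraries. The tRNAs took 0.00644% with SLC2A3 and 0.00621% with the empty vector. In bulk RNA a lower value in every cell and fewer cells that express a gene cannot be told apart, and the same holds for the number of mitochondrial genomes and the RNA made from each.

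Transcript levels per length differed widely between genes of the same precursor. Per kilobase of gene and as the mean of all 6 libraries, MT-CO3, a core subunit of cytochrome c oxidase (complex IV), was the highest with 275484 normalised reads. MT-CO2, which receives electrons from cytochrome c, had 232970.3 per kilobase, and MT-RNR2, the large ribosomal RNA, 193150.0. MT-ATP6, a subunit of the proton channel of ATP synthase (complex V), had 137296, and MT-CO1, the catalytic core of complex IV, 119809.

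The 7 mRNAs of complex I, the NADH dehydrogenase that feeds electrons into the chain, lay lower. MT-ND4 and MT-ND1 led them with 118999 and 101980.2 normalised reads per kilobase. MT-ND6, MT-ND3, MT-ND5 and MT-ND2 lay between 51742 and 59476. MT-ND4L was the lowest of the 13 mRNAs at 41460.4, below MT-ATP8 at 44152 and MT-CYB, the cytochrome b of complex III, at 49893. MT-RNR1, the small ribosomal RNA, had 68613. MT-ND6, the only mRNA encoded on the minus strand, thus stood within the range of the plus-strand mRNAs. How strand was used in counting is not given, and its reads may include those of the opposite strand.

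**Figure D1:**
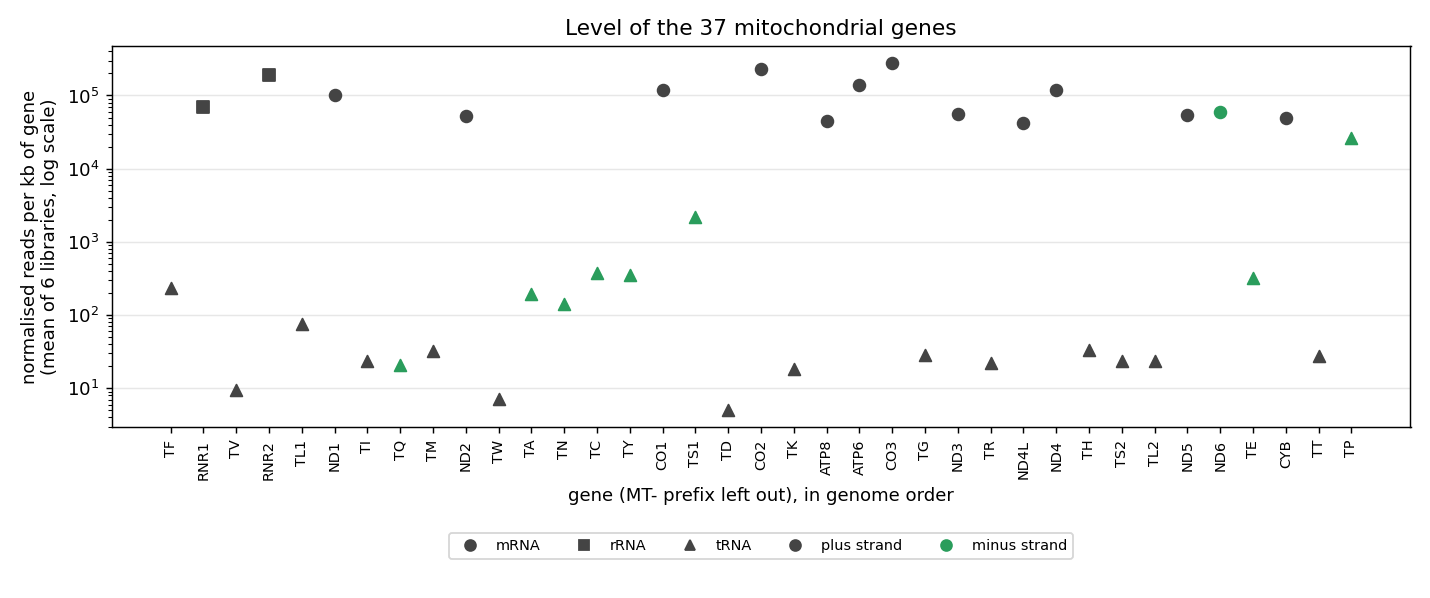
Level of each of the 37 mitochondrial genes in genome order, as normalised reads per kilobase of gene on a log scale, mean of 6 libraries. Circles are mRNAs, squares rRNAs and triangles tRNAs, dark for the plus and green for the minus strand; the 13 mRNAs and 2 rRNAs lie above every tRNA, and MT-TP is the highest tRNA.

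The genes are packed so tightly that some share bases, and the deposited counts do not say how reads in such stretches were assigned. MT-ND4L and MT-ND4, which are carried on the same mature mRNA, share 7 bases. These are shown here in capitals because MT-ND4L is the only mitochondrial gene that passed the test below (chrM:10730-10766 and chrM:10760-10796, hg38, plus strand, GENCODE 29).
End of MT-ND4L: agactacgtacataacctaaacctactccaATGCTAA
Start of MT-ND4: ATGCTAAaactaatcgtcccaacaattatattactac
MT-ATP8 and MT-ATP6, the other pair on a common mRNA, share 46 bases, again in capitals (chrM:8497-8572 and chrM:8527-8602, plus strand).
End of MT-ATP8: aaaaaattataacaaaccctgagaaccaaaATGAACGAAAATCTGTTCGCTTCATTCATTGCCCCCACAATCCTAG
Start of MT-ATP6: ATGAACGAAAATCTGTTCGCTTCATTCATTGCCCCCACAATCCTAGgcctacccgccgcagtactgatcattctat
In each pair the start codon of the downstream gene lies inside the upstream gene.

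MT-ND4L, a small membrane subunit of complex I (chrM:10470-10766, ENSG00000212907.2), was the only mitochondrial gene that passed the test, and it was lower with SLC2A3. It had 10955, 11076 and 12388 normalised reads in SLC2A3 libraries, against 13749, 11984 and 13730.2 in empty vector libraries. The groups overlapped, since SLC2A3 replicate 3 lay above empty vector replicate 2. The means were 11473 ± 794 with SLC2A3 and 13154 ± 1013 with the empty vector (SD, n = 3 each), a decrease of 12.8% (log2 fold change -0.20, SE 0.050, limma adjusted p = 0.0407).

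Of the 37 genes, 33 passed the filter on low values, which kept genes that reached 1 normalised read in 3 or more libraries. Of these, 1 was called lower and 0 higher at a limma adjusted p under 0.05. Over all 28015 genes tested, 0.800% were called lower and 0.692% higher, 1.49% in all. At an unadjusted p under 0.05, 9 of the 33 differed, 8 mRNAs and MT-RNR1, against 11.8% of all genes tested. Highly expressed genes passed more often. Among the 724 genes with a mean of at least 8000 normalised reads, a limit chosen after the values were seen so as to hold all 13 mRNAs and both rRNAs, 45.6% had an unadjusted p under 0.05, 6.35% were called lower and 7.04% higher. The 8 of 13 mRNAs at an unadjusted p under 0.05 are read against that 45.6%.

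The direction was shared more widely than the call. Of the 13 mRNAs, 12 had a negative log2 fold change, with a median of -0.09 and a range of -0.20 to 0.01, against a median of 0.00 over all genes tested, of which 49.7% were negative. The groups overlapped for all 13 mRNAs. Groups without overlap were seen for 16.3% of all genes tested, 8.27% with SLC2A3 lower, and for 20.9% with SLC2A3 lower among those with a mean of at least 8000. These mRNAs share precursors, so they are not independent observations.

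**Figure D2:**
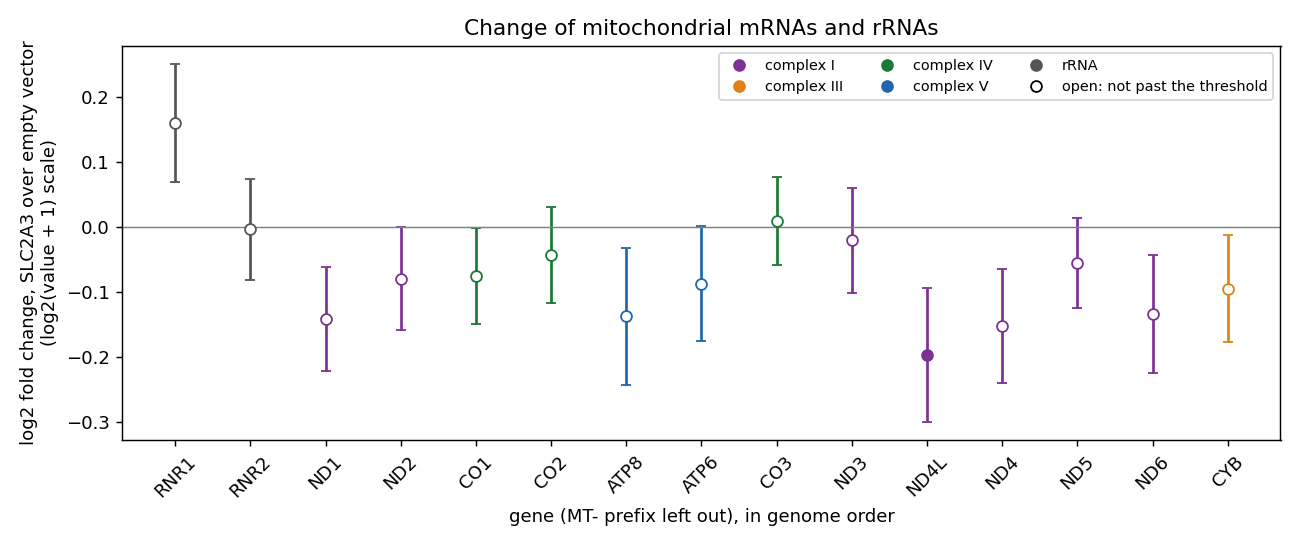
Log2 fold change of SLC2A3 over empty vector for the 13 mRNAs and 2 rRNAs in genome order, on the log2(value + 1) scale, with 95% limma confidence intervals (n = 3 libraries each). Colours mark the complex and the filled point is past the threshold; MT-ND4L lies lowest at -0.20 and MT-RNR1 highest at 0.16.

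Among the other complex I mRNAs, MT-ND1, which lies at the base of the membrane arm, had 92695, 90573 and 94648 normalised reads in SLC2A3 libraries, against 107896, 93831 and 105315 in empty vector libraries. The groups overlapped by SLC2A3 replicate 3 and empty vector replicate 2. With a log2 fold change of -0.14 (SE 0.039) it missed the threshold (limma adjusted p = 0.0643).

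MT-ND4, a proton-pumping subunit and the partner of MT-ND4L on its mRNA, had 153473, 151504 and 160443 normalised reads in SLC2A3 libraries, against 183930.1, 154360.5 and 180170.0 in empty vector libraries. Here too the groups overlapped, because empty vector replicate 2 lay close to the SLC2A3 libraries. It missed the threshold at a log2 fold change of -0.15 (SE 0.043, limma adjusted p = 0.0766).

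MT-ND6, the membrane subunit encoded on the minus strand, had 29015, 27836 and 32566 normalised reads in SLC2A3 libraries, against 33473, 31148 and 33311 in empty vector libraries. Its log2 fold change of -0.13 missed the threshold (SE 0.044, limma adjusted p = 0.152). MT-ND2, MT-ND5 and MT-ND3, further membrane subunits, had log2 fold changes of -0.08, -0.05 and -0.02, with adjusted p of 0.421 to 0.901. All 7 complex I mRNAs were thus negative, with a median of -0.13, and 1 of them passed.

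The single complex III mRNA, MT-CYB, had 53556, 53460.2 and 58093 normalised reads in SLC2A3 libraries, against 61422, 54647 and 60389 in empty vector libraries (log2 fold change -0.10, SE 0.040, limma adjusted p = 0.317). Both complex V mRNAs were likewise not past the threshold. MT-ATP8 had 8302, 8448 and 9356 normalised reads in SLC2A3 libraries, against 10032, 8707 and 9992 in empty vector libraries (-0.14, adjusted p = 0.234), and MT-ATP6 had a log2 fold change of -0.09 (adjusted p = 0.435). In all 3 genes SLC2A3 replicate 3 lay above empty vector replicate 2.

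The 3 complex IV mRNAs, with a median log2 fold change of -0.04, were not past the threshold. MT-CO1 had 172777, 188177 and 178754 normalised reads in SLC2A3 libraries, against 199162, 178276 and 191328 in empty vector libraries, a log2 fold change of -0.08 (SE 0.036, limma adjusted p = 0.415). MT-CO2 had a log2 fold change of -0.04 (adjusted p = 0.728). MT-CO3 had 206962, 220809 and 222201 in SLC2A3 libraries, against 222546, 206636 and 216722 in empty vector libraries, and was the only mRNA with a positive value (0.01, SE 0.033, adjusted p = 0.958). The 95% interval of that difference ran from -0.06 to 0.08.

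The values within a group followed the library. Empty vector replicate 2 was the lowest of its group for 12 of the 13 mRNAs and the highest for MT-ND5, and empty vector replicate 1 was the highest for 12. SLC2A3 replicate 3 was the highest of its group for 11 of the 13. Empty vector replicate 2 was also the library of its group with the most RN7SL1, and its part in the result is measured by leaving it out.

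Without empty vector replicate 2, 6 mitochondrial genes were called lower, namely MT-ND1, MT-ATP8, MT-ND4L, MT-ND4, MT-ND6 and MT-CYB. That fit called 0.910% of all genes lower, and 8.15% of those with a mean of at least 8000. Without SLC2A3 replicate 3, MT-ND4L and MT-ND6 were called lower, where 0.327% of all genes and 2.90% of those with a mean of at least 8000 were. Without empty vector replicate 1 or 3, or SLC2A3 replicate 1 or 2, 0 were called lower, and the adjusted p of MT-ND4L was 0.170 to 0.192. In these fits 0.491%, 0.373%, 0.900% and 0.516% of all genes were called lower. Without replicate 2 of both groups, 7 were called lower, where 1.02% of all genes and 8.29% of those with a mean of at least 8000 were. In that fit 12 of the 13 mRNAs were negative. The count of called genes thus depends on single libraries.

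**Figure D3:**
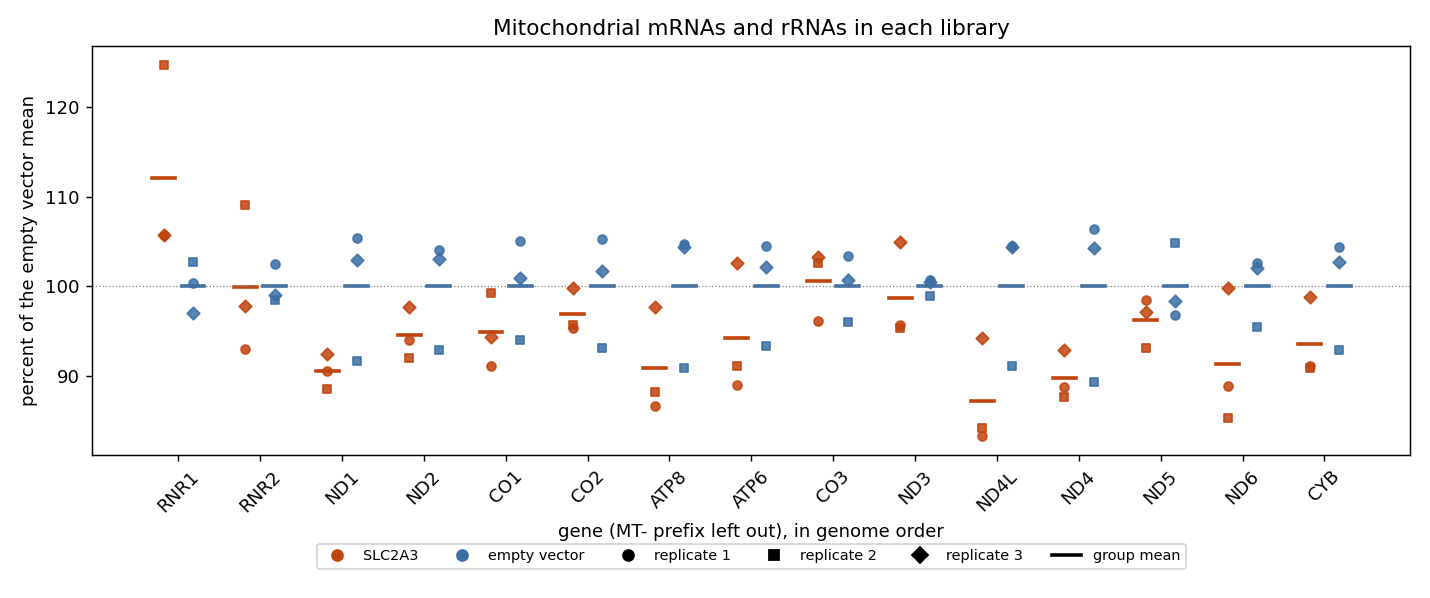
Each mitochondrial mRNA and rRNA in each library as a percent of the mean of the empty vector group, in genome order. SLC2A3 libraries are on the left of each pair and empty vector libraries on the right, marker shapes give the replicate number and bars the group means; empty vector replicate 2 (square) lies below the other 2 libraries of its group for 12 of 13 mRNAs.

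The count also depended on the test. On the recovered whole reads, edgeR's quasi-likelihood test called MT-ND4L, MT-ND1 and MT-ND4 lower (adjusted p = 0.0112, 0.0179 and 0.0159), where it called 1.76% of all genes lower and 1.53% higher. DESeq2 called MT-ND4L and MT-ND1 lower (adjusted p = 0.00838 and 0.0194), where it called 4.49% of the genes it tested lower and 3.49% higher. Limma-voom called MT-ND4L, MT-ND1, MT-ND4 and MT-ND6 lower, where it called 1.73% of all genes lower and 1.51% higher. With limma-trend, the share called lower was 0.800% of all genes and 6.35% of those with a mean of at least 8000. Shares at that level were not computed for the tests on recovered reads, so their shares of all genes are not matched for level.

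A comparison within the mitochondrial mRNAs does not depend on how libraries are scaled to each other. The complex I mRNAs made up 40.1%, 38.4% and 39.4% of the reads of the 13 mRNAs in SLC2A3 libraries, against 40.2%, 40.5% and 40.7% in empty vector libraries. The SLC2A3 libraries were all lower, by 1.17 percentage points on average, and SLC2A3 replicate 1 lay close to the empty vector group. The complex IV mRNAs made up 46.9%, 48.7% and 46.8% in SLC2A3 libraries, against 46.3%, 46.3% and 45.8% in empty vector libraries, and were all higher. By gene, the difference in mean share was -0.742 percentage points for MT-ND4 and -0.378 for MT-ND1, with smaller falls for MT-ND6, MT-ND4L and MT-ND2. MT-ND5 and MT-ND3 went the other way, at 0.0916 and 0.0599. In complex IV it was 1.05 for MT-CO3, 0.287 for MT-CO2 and 0.00344 for MT-CO1. All of these are shares of a common sum, so that a gain in some mRNAs lowers the share of others. They are given without a test, and how often sums of other genes separate the groups was not measured.

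Of the single mRNAs, MT-ND4L took 0.963%, 0.956% and 1.03% in SLC2A3 libraries, against 1.08%, 1.04% and 1.10% in empty vector libraries. MT-CO3 took 18.2%, 19.1% and 18.5% in SLC2A3 libraries, against 17.4%, 17.9% and 17.3% in empty vector libraries. MT-CO2 took 13.6%, 13.4% and 13.4% in SLC2A3 libraries, against 13.3%, 13.02% and 13.2% in empty vector libraries. The groups did not overlap for these 3 of the 13 mRNAs, MT-ND4L being lower and MT-CO3 and MT-CO2 higher with SLC2A3, and they overlapped for the other 10. For normalised values, groups without overlap were seen for 16.3% of all genes tested. Among those with a mean of at least 8000, 22.9% were higher and 20.9% lower with SLC2A3 without overlap. When libraries were scaled to the summed values of the 13 mRNAs, 9 of 13 log2 fold changes were negative, none of the 37 genes was called, none of the 13 mRNAs had an unadjusted p under 0.05, and MT-ND4L stood at -0.12 (adjusted p = 0.509). That scaling moved the median of all genes to 0.07.

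**Figure D4:**
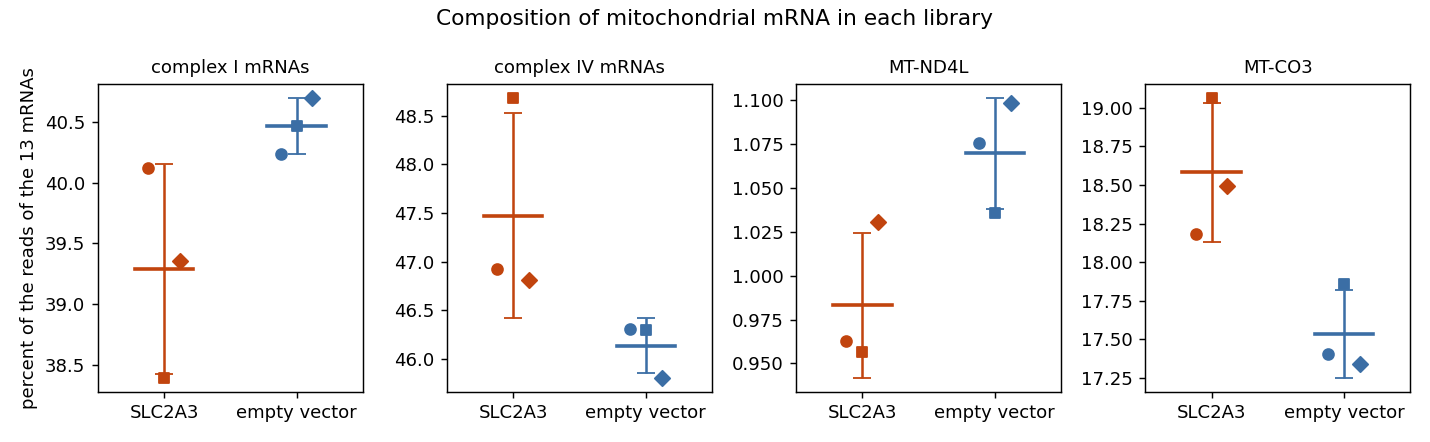
Percent of the reads of the 13 mitochondrial mRNAs taken by complex I mRNAs, complex IV mRNAs, MT-ND4L and MT-CO3 in each library, with the group mean and SD (n = 3 each). Circles, squares and diamonds are replicates 1, 2 and 3, and the vertical axes do not start at 0. The 4 panels show items whose groups did not overlap. MT-CO2, whose groups did not overlap either, is not drawn, nor are complexes III and V and the mRNAs whose groups overlapped.

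Ratios within the pairs that share an mRNA overlapped between the groups. MT-ND4L over MT-ND4 was 0.0714, 0.0731 and 0.0772 in SLC2A3 libraries, against 0.0748, 0.0776 and 0.0762 in empty vector libraries. MT-ATP8 over MT-ATP6 was 0.0969, 0.0963 and 0.0947 in SLC2A3 libraries, against 0.0997, 0.0969 and 0.102 in empty vector libraries. Between mRNAs of the same precursor, MT-ND4 over MT-CO3 was 0.742, 0.686 and 0.722 in SLC2A3 libraries, against 0.826, 0.747 and 0.831 in empty vector libraries, with no overlap. MT-CO3 is the only mRNA with a positive log2 fold change, and the pair was chosen after the values were seen. The ratios of MT-ND6 to MT-ND5, MT-ND1 to MT-RNR2 and MT-TP to MT-CYB overlapped between the groups.

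Neither rRNA passed the test. MT-RNR1 had 65242, 77006 and 65273 normalised reads in SLC2A3 libraries, against 61962, 63385 and 59874 in empty vector libraries. Every SLC2A3 library lay above every empty vector library, as was the case for 8.04% of all genes tested and for 22.9% of those with a mean of at least 8000. The means were 69174 ± 6783 with SLC2A3 and 61740.2 ± 1766 with the empty vector (SD, n = 3 each), with SLC2A3 replicate 2 the highest. The log2 fold change of 0.16 missed the threshold (SE 0.044, limma adjusted p = 0.0685), while edgeR and limma-voom called it higher (adjusted p = 0.0200 and 0.0115) and DESeq2 did not (adjusted p = 0.262).

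MT-RNR2 had 280208, 328490.2 and 294417 normalised reads in SLC2A3 libraries, against 308814, 296473 and 298323 in empty vector libraries. SLC2A3 replicate 2 was the highest library here too, and SLC2A3 replicate 1 the lowest (log2 fold change -0.00, SE 0.038, limma adjusted p = 0.987). MT-RNR1 over MT-RNR2, which are separated by MT-TV alone and lie behind the same promoter region, was 0.233, 0.234 and 0.222 in SLC2A3 libraries, against 0.201, 0.214 and 0.201 in empty vector libraries. The ratio was higher in every SLC2A3 library, with 0.222 against 0.214 at the closest. It largely restates the separation of MT-RNR1, since the mean of MT-RNR2 hardly differed. How often ratios of other genes separate the groups was not measured. The sources used here do not give how mRNA was selected or ribosomal RNA depleted, and the share of either rRNA that escaped such a step cannot be told apart from its level in the cells.

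The tRNA genes, each 59 to 75 bases long, differed by strand in the number of reads. The sources used here do not give how strand was used in counting, so reads of opposite-strand transcripts cannot be told apart. Libraries of this kind are not designed for molecules this short, and these values count reads assigned to a tRNA gene and do not tell the mature tRNA from its precursor. On the minus strand, 7 of 8 had at least 142 normalised reads per kilobase, and MT-TQ, the tRNA for glutamine, had 21.0. On the plus strand, MT-TF, the tRNA for phenylalanine, had 237 and MT-TL1, a tRNA for leucine, 74.9, and the other 12 had at most 33.5. The 4 genes below the filter, MT-TV, MT-TW, MT-TD and MT-TS2, are all on the plus strand and had 1 to 7 reads in all in SLC2A3 libraries and 1 to 2 in empty vector libraries.

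MT-TP, the tRNA for proline, stood far above the others at 26660.1 normalised reads per kilobase, followed by MT-TS1, a tRNA for serine, at 2163 and MT-TC, the tRNA for cysteine, at 374. MT-TP is the tRNA gene nearest to the promoter of the minus strand. These 3 and MT-TV, a gene with few reads between the rRNA genes, are shown in full as DNA of their own strand (hg38, GENCODE 29; MT-TP chrM:15956-16023, MT-TS1 chrM:7446-7514 and MT-TC chrM:5761-5826, minus strand; MT-TV chrM:1602-1670, plus strand).
MT-TP: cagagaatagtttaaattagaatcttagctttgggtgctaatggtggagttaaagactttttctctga
MT-TS1: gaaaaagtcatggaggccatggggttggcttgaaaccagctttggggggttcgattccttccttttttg
MT-TC: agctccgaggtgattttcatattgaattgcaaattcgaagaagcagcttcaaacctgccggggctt
MT-TV: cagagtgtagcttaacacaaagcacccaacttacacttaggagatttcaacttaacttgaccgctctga
MT-TV, the tRNA for valine, had 2 reads in all in SLC2A3 libraries and 2 in empty vector libraries, while MT-RNR1 beside it had at least 59874 normalised reads in every library.

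No tRNA differed between the groups at this depth. MT-TP had 1705, 1938 and 1934 normalised reads in SLC2A3 libraries, against 1811, 1769 and 1720.0 in empty vector libraries (log2 fold change 0.07, SE 0.062, limma adjusted p = 0.746). MT-TS1 had 170, 144 and 138 in SLC2A3 libraries, against 142, 148 and 154 in empty vector libraries (0.02, SE 0.154, adjusted p = 0.983). MT-TC had 19.5, 24.9 and 17.1 in SLC2A3 libraries, against 33.6, 23.0 and 30.04 in empty vector libraries (-0.47, SE 0.377, adjusted p = 0.710). Of the 18 tRNAs tested, 0 were called by limma and 0 had an unadjusted p under 0.05, and the smallest adjusted p was 0.535, for MT-TQ with 1 read in SLC2A3 libraries and 8 in empty vector libraries. edgeR and limma-voom called none of the 8 tRNAs they tested.

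Stretches of the mitochondrial genome have been copied into the nuclear chromosomes, and reads from the mitochondrial genes can be assigned to such copies. The files hold 417 IDs for MT pseudogenes and MTRNR2L genes, of which 120 had reads and 4 had a mean of at least 100 normalised reads. MTATP6P1, on chromosome 1 (chr1:633696-634376, hg38), was by far the highest, with 16021, 16436 and 18016 normalised reads in SLC2A3 libraries, against 18983, 16738 and 19281 in empty vector libraries. These values equalled 18.7%, 18.7% and 18.2% of MT-ATP6 in SLC2A3 libraries, against 18.9%, 18.6% and 19.6% in empty vector libraries. The copy thus stood at a near constant share of its mitochondrial gene. Its log2 fold change was -0.12 (limma adjusted p = 0.259).

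MTATP6P1 and MT-ATP6 differed at 10 of 681 bases in the annotation, an identity of 98.5%. The window of 60 bases from base 123 to 182 of the gene that holds 3 of these differences, in capitals, shows how little tells them apart (MT-ATP6 chrM:8649-8708 and MTATP6P1 chr1:633818-633877, hg38, plus strand, GENCODE 29).
MT-ATP6: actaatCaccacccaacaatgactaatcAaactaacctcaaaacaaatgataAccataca
MTATP6P1: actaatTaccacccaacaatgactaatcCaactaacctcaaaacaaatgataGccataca
Of all stretches of 50 bases in MT-ATP6, 46.7% occurred unchanged in a nuclear transcript of GENCODE 29. The share was 49.5% for MT-CO1, 43.6% for MT-ND2, 30.6% for MT-CO3, 28.98% for MT-CO2 and 22.1% for MT-ND1. It was 0% for MT-ND4L, MT-ND3, MT-RNR1 and every tRNA, so that reads of 50 bases or more from MT-ND4L and MT-RNR1 had no identical nuclear transcript there. The sources used here give neither the read length nor the handling of reads with several positions.

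MTND2P28 equalled 2.76% to 3.07% of MT-ND2 and MTCO1P12 0.125% to 0.136% of MT-CO1 over the 6 libraries. Of the 56 nuclear copies tested, 1 was called lower by limma and 0 higher, where 0.800% and 0.692% of all genes were. That copy, MTRNR2L8, which is 93.1% identical to MT-RNR2, had 0, 0 and 2.14 normalised reads in SLC2A3 libraries, against 13.2, 15.002 and 8.01 in empty vector libraries. At 2 reads in all with SLC2A3 and 36 with the empty vector, it carried almost none of the reads of this sequence family (adjusted p = 0.0186). It lost its call without empty vector replicate 1 (adjusted p = 0.0957), without empty vector replicate 2 (0.0832) and without SLC2A3 replicate 1 (0.0641) or 2 (0.0733). It also lost it with a pseudocount of 0.1 (0.0955) and without replicate 2 of both groups (0.126), 6 of 11 alternatives in all.

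The nuclear genes that make up the rest of the same complexes had mostly positive differences. Of the 37 nuclear complex I subunits tested, 0 were called by limma, 6 had an unadjusted p under 0.05, 29 had a positive log2 fold change and the median was 0.06. Of the 9 of complex III, 0 were called, 3 had an unadjusted p under 0.05 and all were positive, with a median of 0.07. Of the 11 of complex IV, 2 rose, 0 fell and 5 had an unadjusted p under 0.05 (median 0.10). Of the 17 of complex V, 2 rose, 0 fell and 7 had an unadjusted p under 0.05 (median 0.08). Over all genes tested the median was 0.00, 49.7% were negative, 0.692% were called higher and 11.8% had an unadjusted p under 0.05. Among those with a mean of at least 8000 normalised reads, 7.04% were called higher and 45.6% had an unadjusted p under 0.05. No share was computed for genes at the level of these subunits, so the counts are not read as an excess.

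COX5B, a subunit of complex IV, rose 1.27-fold, to 5435, 6136 and 5496 normalised reads in SLC2A3 libraries, against 4045, 5045 and 4390.2 in empty vector libraries (log2 fold change 0.34, SE 0.061, limma adjusted p = 0.00163). COX6C, another, rose 1.17-fold, to 5496, 5314 and 5587 in SLC2A3 libraries, against 4703, 4637 and 4634 in empty vector libraries (0.23, SE 0.045, adjusted p = 0.00442), and lost its call without SLC2A3 replicate 3 (adjusted p = 0.0620). ATP5ME, a membrane subunit of ATP synthase, rose 1.26-fold, to 1548, 1536 and 1445 in SLC2A3 libraries, against 1170.4, 1242 and 1174 in empty vector libraries (0.34, SE 0.064, adjusted p = 0.00331). ATP5F1D, the delta subunit of its rotor stalk, rose 1.17-fold, to 9709, 10126 and 9866 in SLC2A3 libraries, against 8149, 8657 and 8493 in empty vector libraries (0.23, SE 0.041, adjusted p = 0.00179). In all 4 genes every SLC2A3 library lay above every empty vector library, as was the case for 8.04% of all genes tested. The 4 genes were named because limma called them on these same values, so the separation adds no further support. Whether reads of these genes were shared with processed copies elsewhere in the genome was not tested.

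Summed over the nuclear subunits of complex I, the SLC2A3 libraries held 108828, 106034 and 106765 normalised reads, against 101126, 105476 and 100541 in empty vector libraries. Divided by the summed mitochondrial subunits, this gave 0.238, 0.238 and 0.226 in SLC2A3 libraries, against 0.197, 0.225 and 0.198 in empty vector libraries. The groups did not overlap, by a margin smaller than the spread within either group. The same ratio overlapped between the groups for complexes III, IV and V, as empty vector replicate 2 lay among the SLC2A3 libraries. No test was made on these sums.

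**Figure D5:**
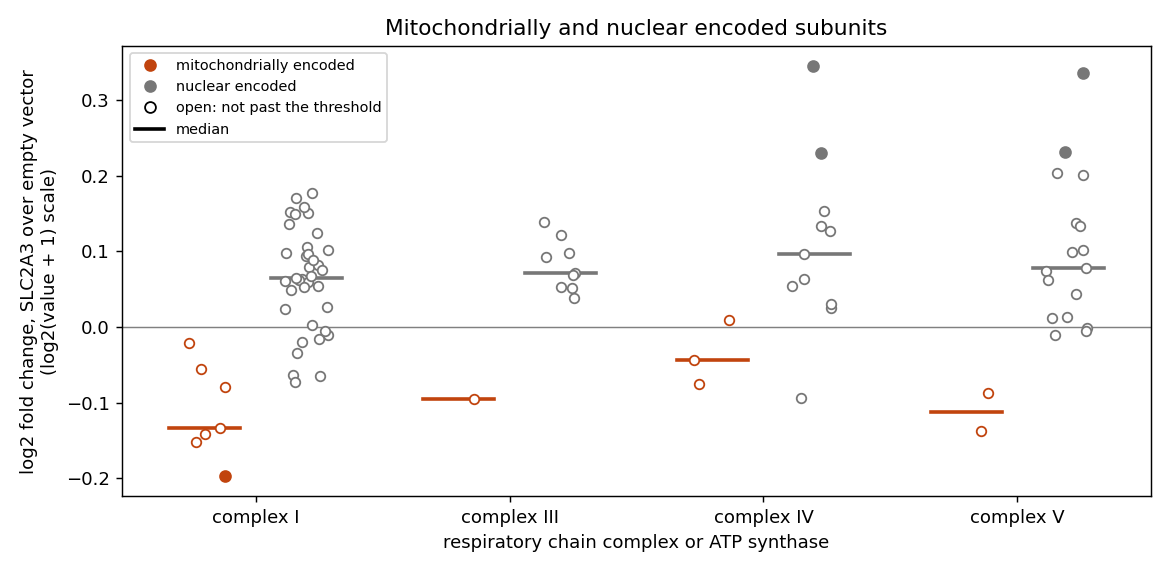
Log2 fold change of SLC2A3 over empty vector for mitochondrially encoded and nuclear encoded subunits of complexes I, III, IV and V, on the log2(value + 1) scale. Each point is a gene, filled points are past the threshold and bars are medians; the medians are -0.13, -0.10, -0.04 and -0.11 for mitochondrial genes and 0.06, 0.07, 0.10 and 0.08 for nuclear genes.

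The nuclear machinery that copies, transcribes and matures mitochondrial RNA showed no called gene by limma. Of 21 genes of mitochondrial transcription and DNA maintenance, 0 were called and 8 had an unadjusted p under 0.05. That was so for 11.8% of all genes tested and 45.6% of those with a mean of at least 8000. The median log2 fold change of the list was 0.02. POLRMT, the polymerase, averaged 5362 ± 91.3 normalised reads with SLC2A3 and 5089 ± 114 with the empty vector (SD, n = 3 each; log2 fold change 0.08, adjusted p = 0.558). TFAM, which packages mitochondrial DNA and starts its transcription, stood at 0.04 (adjusted p = 0.885), and TWNK, the replicative helicase, at 0.13 (adjusted p = 0.368).

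Of 23 genes of RNA processing, stability and decay, 0 were called and 2 had an unadjusted p under 0.05, against 11.8% of all genes tested. Their median log2 fold change was 0.03. LRPPRC, which protects mitochondrial mRNAs together with SLIRP, averaged 10314 ± 716 normalised reads with SLC2A3 and 10179.5 ± 261 with the empty vector (log2 fold change 0.02, limma adjusted p = 0.935). SLIRP itself stood at 0.14 (adjusted p = 0.336). PNPT1 and SUPV3L1, which form the RNA-degrading complex of the matrix, stood at 0.02 and 0.03 (adjusted p = 0.958 and 0.933), and ELAC2, which cuts the 3′ end of tRNAs from the precursor, at 0.03 (adjusted p = 0.856).

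The further lists gave 0 calls each by limma, and 4 genes in all with an unadjusted p under 0.05, against 11.8% of all genes tested. They held 18 genes of tRNA modification (median 0.04), 18 of rRNA modification and ribosome assembly (0.05), 14 of translation and membrane insertion (0.06), and 7 tested regulators of mitochondrial biogenesis (-0.04), PPARGC1A being below the filter. MTRES1 is in the lists of RNA processing and of translation, and is counted in both among the genes with an unadjusted p under 0.05. Over all lists, with each gene counted in a single list, 174 of 175 genes were tested. Of these, 4 rose by limma, 0 fell, and 128 had a positive log2 fold change. Of all genes tested, limma called 0.692% higher and 0.800% lower, and 49.7% were negative. On recovered reads edgeR with TMM scaling called 7 of the listed genes higher, DESeq2 11 and limma-voom 8. These tests called 1.53%, 3.49% and 1.51% of all the genes they tested higher.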

How the data were processed

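The deposited files give 1 value per gene and library. They are a normalised signal, since the authors had divided the read count of each gene by a library factor. The evidence is in the numbers themselves: 100% were whole multiples of their library's smallest step within 0.001 reads. The factors equal DESeq2's median-of-ratios factors. Per the labels, total RNA was extracted with Trizol and libraries were made with a NEBNext Ultra II Directional kit. BWA, TopHat2 and hg38 are named in the submitters' processing notes without roles. Annotation and use of strand in counting are not given in the sources used here, and coordinates and sequences are from GENCODE 29. Of the IDs, 60641 had a symbol.

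log2(value + 1) was fitted with limma-trend (limma 3.58.1, R 4.3.3), group being the sole term, over the 28015 genes that reached 1 in 3 or more libraries. Benjamini-Hochberg adjustment covered all of them, with a threshold of 0.05. Because 1 was added before taking logs, fold changes of low genes are understated. The plan named limma for normalised values and edgeR for raw counts. edgeR 4.0.16, DESeq2 1.42.0 and limma-voom were run on the recovered reads as alternatives, beside other filters, pseudocounts, scalings, a replicate block and fits that leave out libraries. The fits were tested on simulated data. All 37 mitochondrial genes are accounted for. From each nuclear list, genes past the threshold are named, up to 4, with 8 genes named whatever their values. Of the nuclear copies, the 3 of highest mean are named, and MTRNR2L8 because it is the 1 called. The members and lists were chosen with earlier results of these data known. Sums, shares and ratios are given without a test. A further marker of other cells is not reported here.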

Additional observations from a re-analysis of the deposited data

How the results depend on the processing

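The log2 fold change of SLC2A3 was 1.68 to 1.74 under every alternative. The number of mitochondrial genes called lower, 1, was 3 with each of edgeR's 4 scalings, with no filter on low values and with a filter of 50, 2 with DESeq2, 4 with limma-voom, 0 with a pseudocount of 0.1, 1 with a pseudocount of 5, 0 when scaled to the 13 mRNAs, 7 without replicate 2 of both groups and 0 to 6 when each library was left out. The number called higher, 0, was 1 (MT-RNR1) with each of edgeR's scalings, with limma-voom, with no filter and with a filter of 50, and 0 to 1 when each library was left out. The causes were not tested.

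Over all genes, where 224 were lower and 194 higher, DESeq2 called 441 lower and 343 higher, a filter of 50 gave 417 and 322, and a pseudocount of 0.1 gave 144 lower. Relative log expression and upper-quartile scaling in edgeR gave 297 and 303 higher. Leaving out each library gave 88 to 244 lower and 100 to 222 higher. Of the nuclear genes, where 4 were higher, edgeR called 7 with TMM, relative log expression or total-count scaling and 8 with upper-quartile scaling, limma-voom 8, DESeq2 11 and a filter of 50 gave 9. Leaving out each library gave 3 to 7, and leaving out replicate 2 of both groups 10.

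The deviations of same-numbered libraries from their group means correlated at -0.08, -0.01 and 0.00 over 13374 genes for replicates 1, 2 and 3. Over the 13 mRNAs they correlated at -0.43, -0.06 and 0.43. Whether same-numbered libraries were prepared together cannot be told from 3 libraries per group. With a replicate block, 2 mitochondrial genes were called lower (MT-ND4L and MT-ND4) and 1 higher (MT-RNR1), among 196 lower and 167 higher genes, and SLC2A3 stood at 1.70.

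The 12 negative log2 fold changes among 13 mRNAs were 12 with every count test and scaling other than that to the mRNAs, and 11 to 13 when each library was left out. The difference in mitochondrial share, -0.170 percentage points, ranged from -0.326 to -0.0855, and that in complex I share from -1.59 to -0.726. MT-ND4L lost its call in 6 of 19 alternatives, and MT-ND1, MT-ND4 and MT-RNR1 gained it in 10 each. Depth limits the tRNAs, of which 13 had under 3 reads per library on average; intervals of the mRNAs rest on the spread between 3 libraries.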
